A study of Mus musculus with 4 samples.

Results

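Genes of antigen presentation by major histocompatibility complex (MHC) class I, and the gene of the immune checkpoint ligand PD-L1, were examined in B16F10 cells, a pigmented mouse melanoma line of C57BL/6 origin. The list held 10 genes: the class I heavy chain genes H2-K1 and H2-D1, the light chain gene B2m, the peptide transporter genes Tap1 and Tap2, tapasin (Tapbp), the immunoproteasome subunit genes Psmb8 and Psmb9, the transactivator gene Nlrc5, and Cd274, which encodes PD-L1. They were chosen by symbol, and each gene was read from its brightest probe set annotated to that gene alone. Of the 10 genes, 7 could be read, out of 17097 named genes on the array. The probe annotation used here listed no probe set for B2m, Tap1 or Tap2, which were not analysed here. Plumbagin, a naphthoquinone from plants, was given at 2 µM for 24 h in 2 samples (plumbagin 1 and plumbagin 2). The other 2 samples had MilliQ water, that is 0 µM plumbagin (control 1 and control 2). All 4 samples were of the one cell line, with 1 array each, and no label states that samples of a group came from separate cultures. The p-values therefore measure the spread between these samples, which may be technical.

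MHC class I molecules carry short peptides from inside the cell to its surface, where CD8 T cells read them. The proteasome cuts proteins into peptides, the TAP transporter moves these into the endoplasmic reticulum, and tapasin helps to load them onto a heavy chain paired with β2-microglobulin. Interferon gamma raises most of these genes through IRF1 and NLRC5, among others, and it also induces PD-L1, which restrains T cells through the receptor PD-1. B16 melanoma cells are known for low surface MHC class I in the resting state, which interferon gamma can raise.

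The stretches before the start sites of 4 of the genes are shown because the first 3 genes were detected and had their lowest value on the same array, while the last, Psmb8, lay at background. Each is the 250 bases before a start site from RefSeq (GRCm38.p6), on the strand of the gene. H2-K1 lies at chr17:34000334-34000583 on the minus strand, before the more downstream of its 2 listed starts. H2-D1 lies at chr17:35262844-35263093, Cd274 at chr19:29367188-29367437 and Psmb8 at chr17:34197945-34198194, all on the plus strand. Capitals mark matches on either strand to AANNGAAA (a core of interferon regulatory factor sites), TTCNNNGAA (the form of a STAT site), GGGATTCCC (a form of NF-kB site), CCAAT and TGACG (part of a CREB site).
H2-K1: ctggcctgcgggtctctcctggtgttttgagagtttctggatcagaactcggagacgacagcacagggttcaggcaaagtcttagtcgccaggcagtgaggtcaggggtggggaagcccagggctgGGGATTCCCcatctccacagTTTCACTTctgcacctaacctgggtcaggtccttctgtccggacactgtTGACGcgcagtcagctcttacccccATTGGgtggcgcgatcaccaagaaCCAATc
H2-D1: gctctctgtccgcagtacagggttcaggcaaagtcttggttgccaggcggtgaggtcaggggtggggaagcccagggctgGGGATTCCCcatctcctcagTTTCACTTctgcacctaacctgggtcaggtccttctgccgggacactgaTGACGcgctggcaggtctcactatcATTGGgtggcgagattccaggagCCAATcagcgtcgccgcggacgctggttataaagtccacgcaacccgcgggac
Cd274: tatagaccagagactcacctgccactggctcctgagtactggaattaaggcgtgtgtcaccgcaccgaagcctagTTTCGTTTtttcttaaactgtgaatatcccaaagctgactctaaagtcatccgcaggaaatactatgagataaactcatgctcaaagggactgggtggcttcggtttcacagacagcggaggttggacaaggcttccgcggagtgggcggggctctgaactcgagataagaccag
Psmb8: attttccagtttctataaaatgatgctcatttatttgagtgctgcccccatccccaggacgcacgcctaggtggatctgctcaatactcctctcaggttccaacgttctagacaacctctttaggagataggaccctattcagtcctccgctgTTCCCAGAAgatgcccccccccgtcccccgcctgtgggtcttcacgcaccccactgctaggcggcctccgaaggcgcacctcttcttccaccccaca

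The H2-K1 and H2-D1 stretches aligned over 203 bases, of which 177 (87.2%) were identical. Both held, in the same order, GGGATTCCC, AANNGAAA, TGACG and 2 CCAAT matches. GGGATTCCC began 124 bases before the listed start of H2-K1 and 170 bases before that of H2-D1, and it occurred in 0.301% of the 32851 windows of the same length in the promoter table. AANNGAAA occurred in 21.3% of windows, CCAAT in 33.8%, TGACG in 17.8% and TTCNNNGAA in 7.02%. Cd274 held only the AANNGAAA match, 175 bases before its start, and Psmb8 only TTCNNNGAA, 97 bases before its start. The stretches shown were chosen by expression, so they are not a fair sample of the genes. Among those not shown, the stretch of Tapbp, also a detected gene, held CCAAT matches and no AANNGAAA. The stretch of Psmb9, a gene at background, held CCAAT and TGACG, as those of the heavy chain genes did. B2m held AANNGAAA but had no expression value. Whether matches go with detection was not tested. The matches describe these letters alone. Of the 10 genes, 8 had an entry in the promoter table, and Tap2 and Nlrc5 had none.

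Values were log2 expression values made by the authors with RMA, 1 per probe set and array. With 2 arrays in each group, precision was limited by their number. One array stood apart: plumbagin 1 had an upper quartile of 6.26, against 6.36 on plumbagin 2 and 6.34 to 6.35 on the controls, and its 18 hybridization spike-in probe sets averaged 9.58, against 8.67 on plumbagin 2 and 8.46 to 8.77 on the controls. Genes of middle brightness (mean log2 value between 7 and 8) had a median of -0.13 on plumbagin 1 and -0.03 on plumbagin 2, both against the control mean. Of the melanocyte marker genes all 9 were above the background level defined below, with a control median of 10.94. Of the leukocyte markers 2 of 13 were (Laptm5, at 5.05, and Cd3e, at 6.21), of the fibroblast markers 0 of 8 and of the endothelial markers 2 of 7 (Kdr and Eng), and the leukocyte marker Ptprc lay between 3.48 and 3.67 on the 4 arrays.

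In untreated B16F10 cells the heavy chain genes, tapasin and PD-L1 were above background, and the immunoproteasome subunit genes Psmb8 and Psmb9 and the transactivator gene Nlrc5 were not. Background was set by 41 odorant receptor (Olfr) genes, taken as not transcribed in this line, whose control means had a median of 3.80, a 95th percentile of 5.00 and a highest value of 6.05. Against the 95th percentile, 4 of the 7 genes were detected, and these 4 also lay above the highest odorant receptor gene. H2-D1 averaged 8.03 ± 0.014 (log2, SD, n = 2), H2-K1 7.13 ± 0.086, Tapbp 6.87 ± 0.036 and Cd274 6.21 ± 0.16 in the controls. Detection of Cd274 rests on a narrow margin over the highest odorant receptor gene. The leukocyte marker Cd3e also averaged 6.21 in the controls, and Cd274 had 5.85 on plumbagin 1. Psmb9 averaged 4.83 ± 0.077, with 3 of the 41 odorant receptor genes above it, and Psmb8 averaged 3.41 ± 0.12, with 30 above it. Nlrc5, the class I transactivator, averaged 2.93 ± 0.085, with 38 above it. Probe sets bind with different strength, so a value at background bounds the signal of that probe set and not the number of transcripts, and values of different genes were not ranked against each other. In total RNA from many cells, fewer cells with a transcript and less transcript per cell cannot be told apart.

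**Figure D1:**
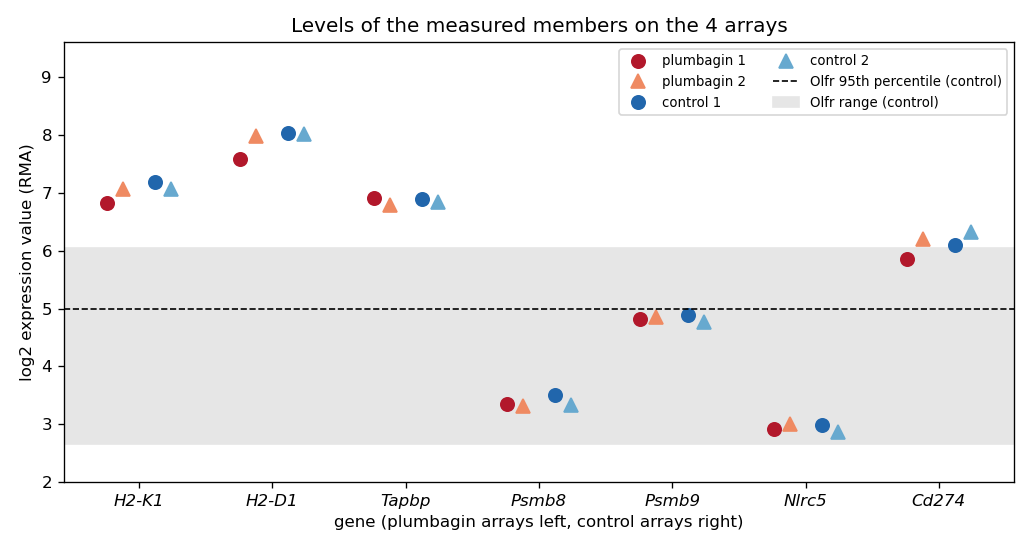
Log2 expression values (RMA) of the 7 genes on each array, plumbagin arrays left and control arrays right for each gene, with the range (grey) and 95th percentile (dashed line, 5.00) of 41 odorant receptor genes in the controls. H2-K1, H2-D1 and Tapbp lie above the grey range on all 4 arrays, Cd274 crosses its upper edge on plumbagin 1 (5.85), and Psmb8, Psmb9 and Nlrc5 lie below the dashed line.

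Detection depended on the probe set for the heavy chains. H2-K1 had 4 probe sets annotated to it alone, of which 1 was above background, and the other 3 had control means between 3.37 and 4.06. H2-D1 had 5, of which 1 was above background, and the other 4 had control means between 3.0 and 4.81. Class I heavy chain genes are highly polymorphic and closely alike, and each of these probe sets was designed on a different class I sequence, with no allele given in the annotation. A further 5 probe sets were annotated to H2-K1 jointly with another gene, and 5 to H2-D1 in the same way. Whether the 2 sets overlap was not counted, and none of them was used. All 9 heavy chain probe sets but 1 carry the array's mark for probes that may bind several similar transcripts, so signal from related class I genes cannot be told apart from that of H2-K1 or H2-D1. Tapbp had 2 probe sets, both above background (6.87 and 5.08 in the controls). The 3 probe sets of Psmb9 (4.83, 4.55 and 3.87 in the controls) and the 2 of Psmb8 (3.41 and 2.64) were all below the background level, and Nlrc5 and Cd274 had 1 probe set each. The Psmb9 values given below come from the probe set at 4.83. The other 2 were designed on 1 shared sequence record, and whether the one at 4.55 reads Psmb9 or the neighbouring gene Tap1 is uncertain and was not settled here.

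Plumbagin was compared with water to ask whether these transcripts differed after 24 h at 2 µM. None of the 7 genes passed the test, and neither did any other of the 17097 genes (limma, Benjamini-Hochberg over all genes, adjusted p = 1 for each of the 7, 0% of genes called). At an unadjusted p under 0.05 there were 0 of the 7 genes, against 169 of all genes (0.988%). The median difference of the 7 genes was -0.081 (log2, plumbagin minus control), with 2 higher and 5 lower, against -0.012 over all genes, of which 7668 were higher and 9429 lower. Among the 4 detected genes the median was -0.18, against -0.05 over the 8762 genes above background.

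The heavy chain genes had lower means in plumbagin-treated cells, carried by plumbagin 1. H2-D1, which encodes the H-2D heavy chain, had 7.58 and 7.99 on plumbagin 1 and 2, against 8.04 and 8.02 on control 1 and 2. Plumbagin 1 was well below the other arrays, while plumbagin 2 was 0.04 below the control mean. The mean difference was -0.24 ± 0.16 (log2, SE), or 1.18-fold lower, with a 95% interval from -0.67 to 0.18, which spans 0.630-fold to 1.13-fold. H2-K1, which encodes the H-2K heavy chain, had 6.83 and 7.07 on plumbagin 1 and 2, against 7.19 and 7.07 on control 1 and 2. Its plumbagin 2 value (7.068) and control 2 value (7.071) were almost equal, so the groups were apart only narrowly. The mean difference was -0.18 ± 0.12 (SE), or 1.14-fold lower, with a 95% interval from -0.50 to 0.14. Both plumbagin arrays lay below both controls for H2-K1 and H2-D1, 2 of the 7 genes, against 15.2% of all genes, and 0 of the 7 had both above, against 10.2%. Over genes above background, as these 2 were, the shares were 18.4% and 5.55%.

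Cd274, the PD-L1 gene, had 5.85 and 6.20 on plumbagin 1 and 2, against 6.10 and 6.32 on control 1 and 2. The groups overlapped, since plumbagin 2 lay above control 1. The mean difference was -0.19 ± 0.16 (log2, SE), or 1.14-fold lower, with a 95% interval from -0.61 to 0.24, that is 0.653-fold to 1.18-fold. The controls themselves differed by -0.22 (control 1 minus control 2), more than the groups did. Tapbp, whose product bridges TAP and the heavy chain, had 6.91 and 6.80 on plumbagin 1 and 2, against 6.90 and 6.85 on control 1 and 2. The 4 values overlapped and the difference was -0.019 ± 0.087, with a 95% interval from -0.25 to 0.21. Tapbp had a value of 0.04 above the control mean on plumbagin 1, the array on which H2-K1, H2-D1 and Cd274 were lowest.

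**Figure D2:**
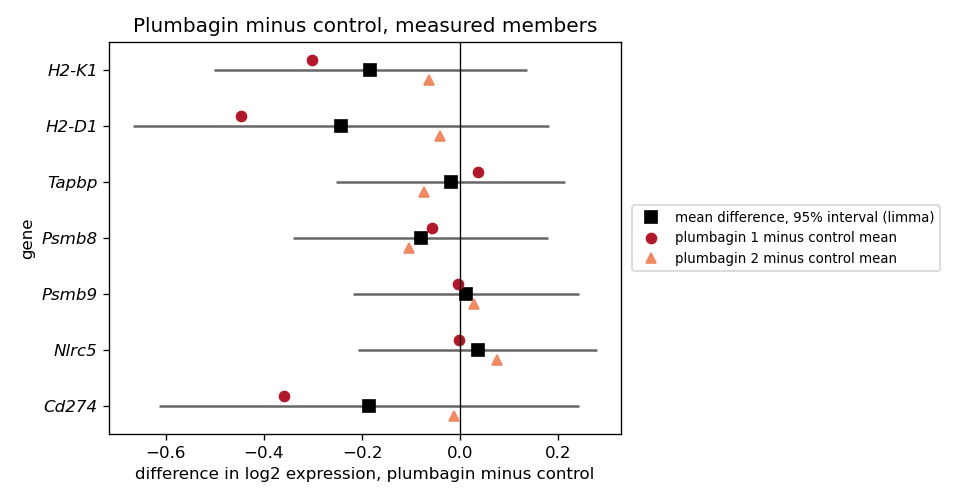
Difference in log2 expression, plumbagin minus control, for the 7 genes: squares and lines are the limma estimate with its 95% interval, circles and triangles are plumbagin 1 and plumbagin 2 minus the control mean. Every interval includes 0, and for H2-K1, H2-D1 and Cd274 the circle lies at -0.30, -0.45 and -0.36 with the triangle at -0.06, -0.04 and -0.01.

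The 3 genes at background had differences near 0, and probe sets at background give no measure of change. Psmb8, the subunit that takes the place of the constitutive Psmb5, had 3.36 and 3.31 on plumbagin 1 and 2, against 3.50 and 3.33 on control 1 and 2 (difference -0.081 ± 0.097, log2, SE). Psmb9, which takes the place of Psmb6, had 4.82 and 4.86 on plumbagin 1 and 2, against 4.88 and 4.77 on control 1 and 2 (0.012 ± 0.086). Nlrc5 had 2.92 and 3.0 on plumbagin 1 and 2, against 2.99 and 2.87 on control 1 and 2 (0.036 ± 0.091). In all 3 genes the groups overlapped, and none was above background on any array.

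The lower values on plumbagin 1 were set beside those of all genes of like brightness (mean within 0.5 on the log2 scale). On plumbagin 1, H2-D1 lay -0.45 from the control mean, where 1807 genes of like brightness had a median of -0.13. H2-K1 lay -0.30 from it, where 2126 genes had a median of -0.12, and Cd274 lay -0.36 from it, where 1918 genes had a median of -0.06. All 3 genes were thus further below the control mean than the middle gene of their brightness on that array. They were singled out as lowest on it, so this place is in part a result of the choice. Tapbp, the other detected gene, lay 0.04 above the control mean there, where 2119 genes had a median of -0.11. On plumbagin 2 the medians beside H2-D1, H2-K1 and Cd274 were -0.02, -0.04 and -0.03. H2-D1 (-0.04), H2-K1 (-0.06) and Cd274 (-0.01) lay close to these medians. With all arrays put through cyclic loess normalization, which levels such trends, the differences between the groups were -0.17 for H2-D1, -0.11 for H2-K1 and -0.12 for Cd274, and that of Tapbp was 0.06. The part of the spike-in and brightness shift of plumbagin 1 in these differences was not tested beyond these values.

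**Figure D3:**
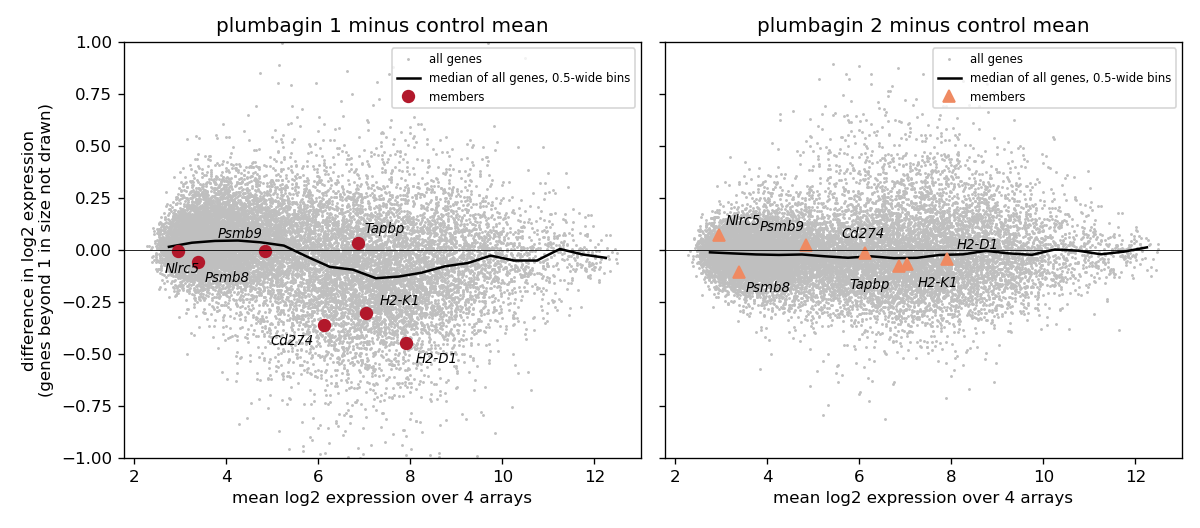
Difference from the control mean (log2) against the mean log2 value over the 4 arrays for all genes (grey), their median in 0.5-wide bins (line) and the 7 genes (coloured), for plumbagin 1 (left) and plumbagin 2 (right). On plumbagin 1 the line dips at middle brightness and H2-K1, H2-D1 and Cd274 lie below it, while on plumbagin 2 they lie close to the line.

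With plumbagin 1 left out, the difference of H2-D1 was -0.04, that of H2-K1 -0.06 and that of Cd274 -0.01. With plumbagin 2 left out, they were -0.45, -0.30 and -0.36. Their sign was negative with any 1 array left out, but their size depended on plumbagin 1. For H2-K1 and H2-D1 that sign was fixed in advance, since both plumbagin arrays lay below both controls. The probe sets at background that were annotated to the heavy chains gave differences of -0.18 to -0.01 for the 3 of H2-K1 and -0.11 to 0.06 for the 4 of H2-D1. With all probe sets of a gene averaged, H2-K1 differed by -0.11 and H2-D1 by -0.05.

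**Figure D4:**
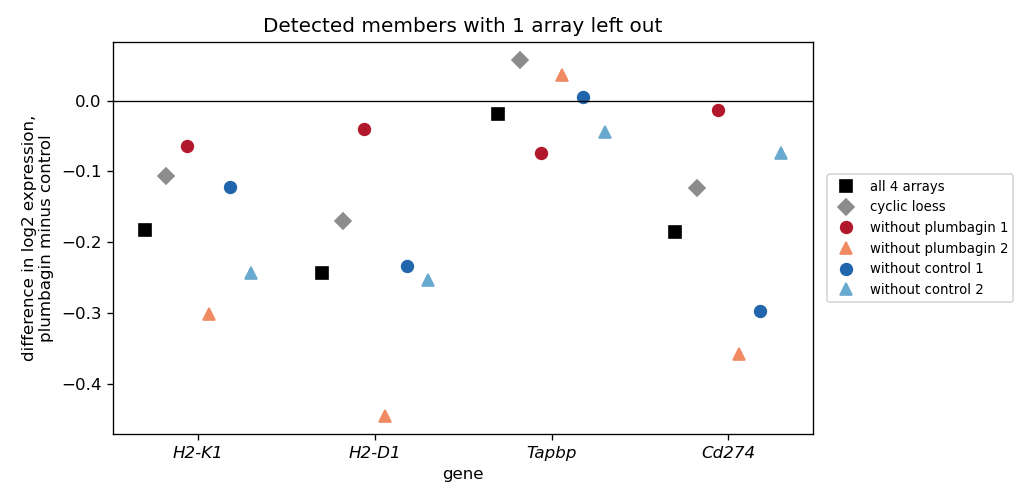
Difference in log2 expression, plumbagin minus control, for the 4 detected genes with all 4 arrays, after cyclic loess and with each array left out in turn. Without plumbagin 1 the differences of H2-K1, H2-D1 and Cd274 lie between -0.06 and -0.01, against -0.45 to -0.30 without plumbagin 2.

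The rest of the class I pathway was measured alongside. In each list below, 0 genes passed limma's test in either direction. At an unadjusted p under 0.05 there was 1 gene in the loading and trimming list, 1 among the checkpoint genes and 0 in the other 5 lists. The class I-like list had 13 of 17 genes measured and 4 above background: H2-T10 (-0.16 ± 0.17, log2, SE), H2-T3 (0.17 ± 0.13), the neonatal Fc receptor gene Fcgrt (-0.03 ± 0.15) and the iron regulator gene Hfe (-0.0069 ± 0.14). Its median was -0.017. The loading and trimming list had 13 of 14 measured, 11 above background and a median of -0.0019. Thop1, a cytosolic peptidase that degrades peptides after the proteasome, had 5.91 and 6.10 on plumbagin 1 and 2, against 6.49 and 6.30 on control 1 and 2. Both plumbagin values were below both controls, and the difference of -0.40 ± 0.12 (unadjusted p = 0.0254, limma) did not pass over all genes. Tpp2, another peptidase, differed by 0.18 ± 0.11, the chaperone gene Canx by 0.11 ± 0.078 and Hspa5 by 0.10 ± 0.18.

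The list of other proteasome genes of antigen processing had all 8 genes measured and above background, with 6 lower, 2 higher and a median of -0.12, against -0.05 over all genes above background. That median was -0.0040 without control 1, -0.25 without control 2 and -0.065 after cyclic loess. The constitutive subunits Psmb5, Psmb6 and Psmb7 had control means of 9.49, 9.69 and 9.94 and differed by -0.17 ± 0.14, -0.15 ± 0.13 and -0.12 ± 0.094 (log2, SE). Psmb10, the third immunoproteasome subunit, had a control mean of 6.25, above background unlike Psmb8 and Psmb9. The margin was narrow, since its control 2 value of 5.93 lay below the highest odorant receptor gene (6.05). The proteasome activator genes Psme1 and Psme2 had control means of 9.02 and 8.30, and Psme3 differed by -0.23 ± 0.18.

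Regulators of class I and PD-L1 had 30 of 32 genes measured and 24 above background, with 22 lower, 8 higher and a median of -0.06. Over the 8762 genes above background, 5735 were lower and the median was -0.05. The median of the regulators was -0.0018 after cyclic loess, -0.010 with quantile normalization applied again and -0.11 without control 2. Both plumbagin arrays lay below both controls in 9 of the 30 and above both in 0, beside 15.2% and 10.2% over all genes, and 18.4% and 5.55% over genes above background. The genes with the smallest p were Irf2, an interferon regulatory factor (-0.21 ± 0.10, log2, SE), Rela, the p65 subunit of NF-kB (-0.28 ± 0.14), and Nfyc and Nfya, subunits of the CCAAT-binding factor NF-Y (-0.16 ± 0.087 and -0.28 ± 0.15). The interferon gamma receptor genes Ifngr1 and Ifngr2 were above background, with control means of 5.85 and 6.93. Ifngr1 lay below the highest odorant receptor gene (6.05), so its detection is less firm.

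Interferon-induced genes had 27 of 32 measured, of which 8 were above background in the controls, with 16 higher, 11 lower and a median of 0.03, against 7668 higher and 9429 lower over all genes. Most of the list was dim, and the 41 odorant receptor genes had a like lean, with 28 higher, 13 lower and a median of 0.03. Both plumbagin arrays lay above both controls in 5 of the 27 and below both in 1, beside 10.2% and 15.2% over all genes. Among the 41 odorant receptor genes these counts were 9 and 5. The median was 0.10 over the genes left by a filter on dim genes and 0.0051 without control 2. Cxcl9, Cxcl10 and Cxcl11, chemokine genes induced by interferon gamma, had control means of 4.07, 3.74 and 3.91, all at background. Those above background with the smallest p were Rsad2, an antiviral enzyme (0.32 ± 0.14, log2, SE), Ifit2 (0.32 ± 0.16), Ddx58, the RIG-I gene (0.15 ± 0.12), and Xaf1 (-0.07 ± 0.084). Rsad2 had 6.83 and 6.52 on plumbagin 1 and 2, against 6.43 and 6.28 on control 1 and 2, so the groups did not overlap, although the difference did not pass the test.

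Other checkpoint and ligand genes had 22 of 25 measured and 8 above background, with 12 higher, 10 lower and a median of 0.0065. Pvr, a ligand of the receptors TIGIT and CD226, had 8.50 and 8.72 on plumbagin 1 and 2, against 8.89 and 8.94 on control 1 and 2 (-0.30 ± 0.11, log2, SE, unadjusted p = 0.0429, limma), and it did not pass over all genes. Nectin2 differed by -0.06 ± 0.085, Lgals3 by -0.12 ± 0.16 and Nt5e by 0.06 ± 0.080. The gene of the second PD-1 ligand, Pdcd1lg2, had a control mean of 3.93, at background, unlike Cd274. Class II genes had all 8 measured with 1, Cd74, above background (control mean 5.11, difference 0.03 ± 0.098), and a median of 0.020.

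**Figure D5:**
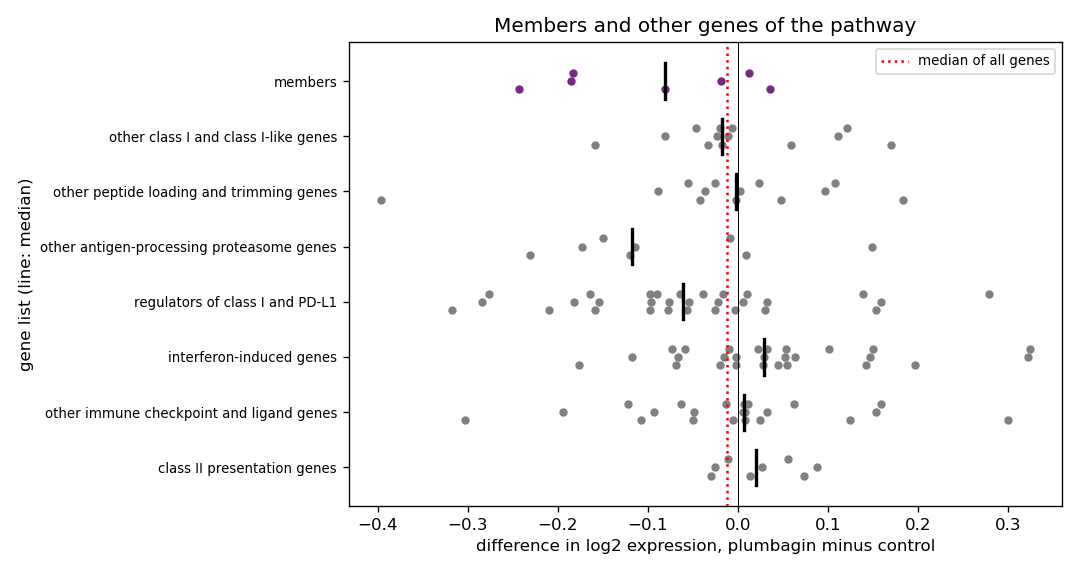
Difference in log2 expression, plumbagin minus control, for each measured gene (points, set at 3 heights for legibility) of the 7 genes and of 7 other lists, with the list median (black line) and the median of all genes (dotted, -0.012). The points of every list spread to both sides of 0, and the black lines lie between -0.12 and 0.03.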

How the data were processed

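Total RNA of B16F10 cells was hybridized as biotin-labelled cRNA to Affymetrix mouse genome array strips, each array holding 1 sample, per the labels' protocols. The deposited log2 values, 1 for each of 45141 probe sets and 4 arrays, were made by the authors with Affymetrix Expression Console, Transcriptome Analysis Console and RMA, per the submitters' processing notes. Their versions and the genome build are not given in the sources used here. Because RMA makes array distributions alike and compresses weak signals, a shift of most genes in one direction would be lost.

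Of 29449 annotated probe sets, 28898 had 1 gene symbol and 551 several. Symbols were updated by Entrez number (28689 probe sets) from RefSeq (GRCm38.p6). The annotation can be old, and probe sets it does not list are unnamed here. Groups came from the sample titles. Differences were fitted with lmFit and eBayes (limma 3.58.1, R 4.3.3) over all genes, two-sided, with Benjamini-Hochberg adjustment and a threshold of 0.05. The code was tested on simulated data with effects far larger than the differences seen here, so recovery of differences of this size was not tested. The background level was the 95th percentile of the control means of the odorant receptor genes. Members and lists were chosen with earlier results of these data known. In each other list, up to 4 genes above background with the smallest p were named. For this choice alone, background was the same percentile of means over the 4 arrays (5.05). Psmb10, Psme1, Psme2, Ifngr1, Ifngr2, Cxcl9, Cxcl10, Cxcl11, Pdcd1lg2, Ptprc and the leukocyte and endothelial markers above background lie outside this rule and were named for their known role. Alternatives were the summary of probe sets, dim-gene filters, normalization, variance model, replicate number as a block, each array left out, and the background level.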

Additional observations from a re-analysis of the deposited data

How the results depend on the processing

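In every alternative fit run, 0 genes and 0 of the measured members were called by limma, while genes at an unadjusted p under 0.05 numbered 25 (with 8637 genes left by a filter on dim genes) to 973 (without plumbagin 2), against 169. H2-K1, H2-D1 and Cd274 were lower with plumbagin in each of the alternatives that can change their values, 8 for H2-K1, 8 for H2-D1 and 7 for Cd274, which has 1 probe set. For H2-K1 and H2-D1, whose groups did not overlap, leaving out 1 array could change the size but not the sign. Tapbp turned to 0.047 with quantile normalization applied again and to 0.057 with cyclic loess, and Psmb9 to -0.0017 with its probe sets averaged, an average that includes the probe set of uncertain assignment. With each array left out in turn, Tapbp ranged from -0.074 to 0.036, Psmb8 from -0.16 to 0.0035, Psmb9 from -0.043 to 0.067 and Nlrc5 from -0.025 to 0.096; the cause was not tested. Over the fits with 1 array left out, the member median ranged from -0.075 without control 2 to 0.0035 without control 1. It was -0.092 with quantile normalization applied again and -0.091 with cyclic loess, and with either filter on dim genes, which left 4 members, it was -0.18. Where 1 array was left in a group, its spread was taken from the other group. The number of members above background was 4, except 5 with the 90th percentile of odorant receptor genes and 3 with probe sets averaged. With the replicate number as a block (replicate block), 0 genes were called and 434 had an unadjusted p under 0.05. Deviations of arrays with the same number correlated at 0.54 over genes, and those of plumbagin 1 with control 2 at -0.54. With 2 arrays per group the deviations within a group mirror each other, so this is a single value. It is a hint from the data alone, since the labels do not say that a number marks a shared culture. Whether the brightness shift of plumbagin 1 enters into it was not tested. Of 108 list medians under the alternatives that can change them, marker lists included, 20 moved by more than the spread between replicates. With 2 arrays per group, even the largest difference over all genes (-0.98) was not called, and genes at background give no measure of change. The 95% intervals given above hold for 1 gene at a time. They are not the limit of what the test over all genes could call.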

Other observations

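Genes were compared if their mean over the 4 arrays was above 5.05 and their range at least 0.3. That level was the odorant receptor 95th percentile of the same mean. Among these 4928 genes, those whose values ran most like H2-K1 were Tmem101, Znhit2 and Morc2a (Pearson r of 0.999 or higher). For Cd274 they were Mrps31, Tspan9 and Ciapin1. These rest on 4 points, and 401 genes had r above 0.95 with H2-K1 and 460 with Cd274. H2-D1 had r = 0.95 with H2-K1. Mrps31 had 7.28 and 7.79 on plumbagin 1 and 2, against 7.64 and 7.96 on control 1 and 2. It had the same order of arrays as Cd274, which follows from its choice by likeness.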
